A study of Rattus norvegicus with 6 samples.

Results

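The transcripts described here carry the symbols of 3 genes for ubiquitin-like modifiers, Ufm1, Ubl3 and Sumo3. The 3 genes were chosen with earlier results of these data known, and their transcripts were taken by symbol alone, after removing the isoform ending. This gave 12 of the 4972 transcripts in the deposited table of long non-coding RNA (lncRNA): 5 of Ufm1, 2 of Ubl3 and 5 of Sumo3. The samples were 3 libraries from the hippocampus of 2VO rats that received TMAO (trimethylamine N-oxide) at 120 mg/kg over 8 weeks, and 3 from 2VO rats that received sterile water over the same 8 weeks. All 6 libraries therefore came from 2VO rats, the vascular dementia model of the study, and no rat without 2VO is analysed here. The labels give neither strain, sex nor age, and do not say whether the libraries are from different animals; the p-values below thus cover only library-to-library spread, which may be technical. The comparison asks which lncRNAs differ under TMAO, which the liver makes by oxidising trimethylamine released by gut bacteria. The listed transcripts together held 832233 to 883265 counts per TMAO library and 901380 to 919024 per 2VO library.

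Ubiquitin-like modifiers are small proteins with the fold of ubiquitin, and most are joined to a target through their C-terminal glycine by a chain of activating, conjugating and ligating enzymes. UFM1 is attached to proteins of the endoplasmic reticulum and the ribosome and takes part in quality control of protein synthesis there. SUMO3, a close relative of SUMO2, is attached mainly to nuclear proteins and is joined in larger amounts when cells are stressed. UBL3 is anchored to membranes by a lipid and is known for sorting proteins into extracellular vesicles. The RefSeq gene table for assembly GRCr8 lists all 3 genes as protein-coding. How the transcripts in the lncRNA table relate to the coding mRNAs is not stated, and reads of isoforms that share exons could be divided in ways that the sources do not describe. The symbols Ufm1-201 and Sumo3-201 are each used for 2 transcript identifiers in the table, so these isoforms are named here with their Ensembl identifier.

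The 3 genes differed widely in level. Per length, the Ubl3 transcripts summed to 67.7 ± 4.31 FPKM (fragments scaled by transcript length and library depth) in TMAO and 62.9 ± 4.60 FPKM in 2VO (SD, n = 3 each). The Ufm1 transcripts summed to 19.1 ± 2.30 FPKM in TMAO and 16.3 ± 1.55 FPKM in 2VO (SD, n = 3 each). The Sumo3 transcripts summed to only 0.593 ± 0.119 FPKM in TMAO and 0.523 ± 0.206 FPKM in 2VO (SD, n = 3 each). The summed FPKM of the 3 genes did not overlap in any library: Ubl3 was at 58.7 or above, Ufm1 between 14.8 and 21.7, and Sumo3 at 0.73 or below.

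A single isoform, Ubl3-201, stood 35th of all 4972 transcripts by mean FPKM and 22nd by mean read count. Next in level per length were Ufm1-204 at 7.48 to 13.97 FPKM and Ufm1-201 (ENSRNOT00000100166) at 4.72 to 6.04 FPKM over the 6 libraries. Each of these 3 isoforms lay above the next in 6 of 6 libraries, with no overlap of their ranges. Below them the neighbours overlapped: Ufm1-203 (0.19 to 1.79 FPKM) lay above Ufm1-202 (0.19 to 0.79) in 5 of 6 libraries, and Ufm1-202 above Ubl3-202 (0.25 to 0.67) in only 3. Sumo3-203 (0.19 to 0.6 FPKM) and Sumo3-201 (ENSRNOT00000118151, 0.1 to 0.22 FPKM) had the lowest means of the 8 transcripts that passed the low-count filter. This filter requires that enough libraries hold about 10 counts. Ubl3-202 lay above Sumo3-203 in only 3 of 6 libraries.

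**Figure D1:**
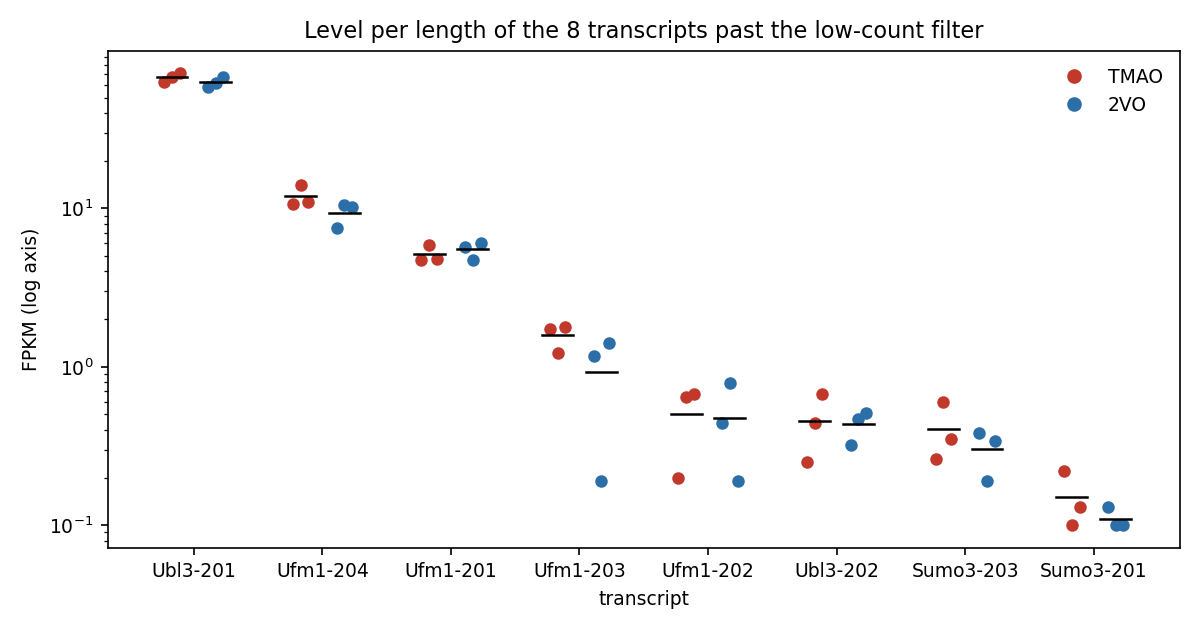
FPKM on a log axis for the 8 transcripts that passed the low-count filter, ordered by mean level, with 3 TMAO libraries (red, left) and 3 2VO libraries (blue, right) each and the group mean as a bar. Ubl3-201 lies between 58.3 and 71.1 FPKM, and the Sumo3 transcripts lie at 0.6 FPKM or below. Sumo3-201 and Ufm1-201 in the plot are ENSRNOT00000118151 and ENSRNOT00000100166.

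TMAO and 2VO differed past the threshold for no transcript of the 3 genes. In edgeR's quasi-likelihood test, with p-values adjusted by the Benjamini-Hochberg method over the 1389 transcripts tested, 0 of the 8 members tested were called. The background was a share of 0% at the adjusted threshold, and 7.56% (105 transcripts, 3.02% being higher in TMAO) at an unadjusted p under 0.05, which 0 of the 8 members reached. An unadjusted edgeR p under 0.1 was reached by 2 of the 8, Ubl3-201 and Ufm1-204, and by 13.5% of all. DESeq2, run as a second test, gave an adjusted p under 0.05 for 17 of 1334 transcripts, or 1.27%, and none of the 8 was among them. In these bulk tissue libraries, fewer cells of a type and less RNA per cell cannot be told apart.

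Ubl3-201 (ENSRNOT00000061229) had 4982, 4810 and 5023 counts in the TMAO libraries and 4294, 4432 and 4661 counts in the 2VO libraries. All 3 TMAO counts lay above all 3 2VO counts. After scaling to library size (CPM) it measured 5691 ± 349 CPM in TMAO and 5040 ± 273 CPM in 2VO (SD, n = 3 each), still without overlap. Among all tested transcripts, 7.2% had TMAO wholly above 2VO on the CPM scale, and 14.4% did not overlap in either direction. The log2 fold change of Ubl3-201 was 0.18 (SE 0.082), with an edgeR unadjusted p of 0.0711 and adjusted p of 0.666. On the FPKM scale, where the whole library is the denominator, the values were 62.95, 67.82 and 71.11 in TMAO and 58.33, 61.79 and 67.27 in 2VO. There the groups overlapped, since TMAO-1 lay below 2VO-3, and the exact two-sided permutation p was 0.2.

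Ubl3-202 (ENSRNOT00000113822), the other isoform, had 22, 36 and 54 counts in TMAO and 27, 38 and 40 in 2VO. The TMAO values lay on both sides of the 2VO values, at an edgeR adjusted p of 0.936. Summed, Ubl3 had 5004, 4846 and 5077 counts in TMAO and 4321, 4470 and 4701 in 2VO. The sum thus followed Ubl3-201, which held 99.3 ± 0.312% of the gene's counts in TMAO and 99.2 ± 0.130% in 2VO (SD, n = 3 each). For the sum the log2 fold change was 0.18 (SE 0.079). The matching fold of 1.13 had a 95% interval of 0.995 to 1.29, and its edgeR adjusted p over 1360 rows was 0.610, against a background of 0% called (7.87%, or 107 rows, at an unadjusted p under 0.05, and 1.36% by adjusted p in DESeq2). When the libraries were scaled by whole-library depth in place of the table's own counts, the log2 fold change was 0.11. Of all rows, 7.28% had TMAO wholly above 2VO in CPM, and 4.56% in FPKM, where the Ubl3 sums overlapped.

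**Figure D2:**
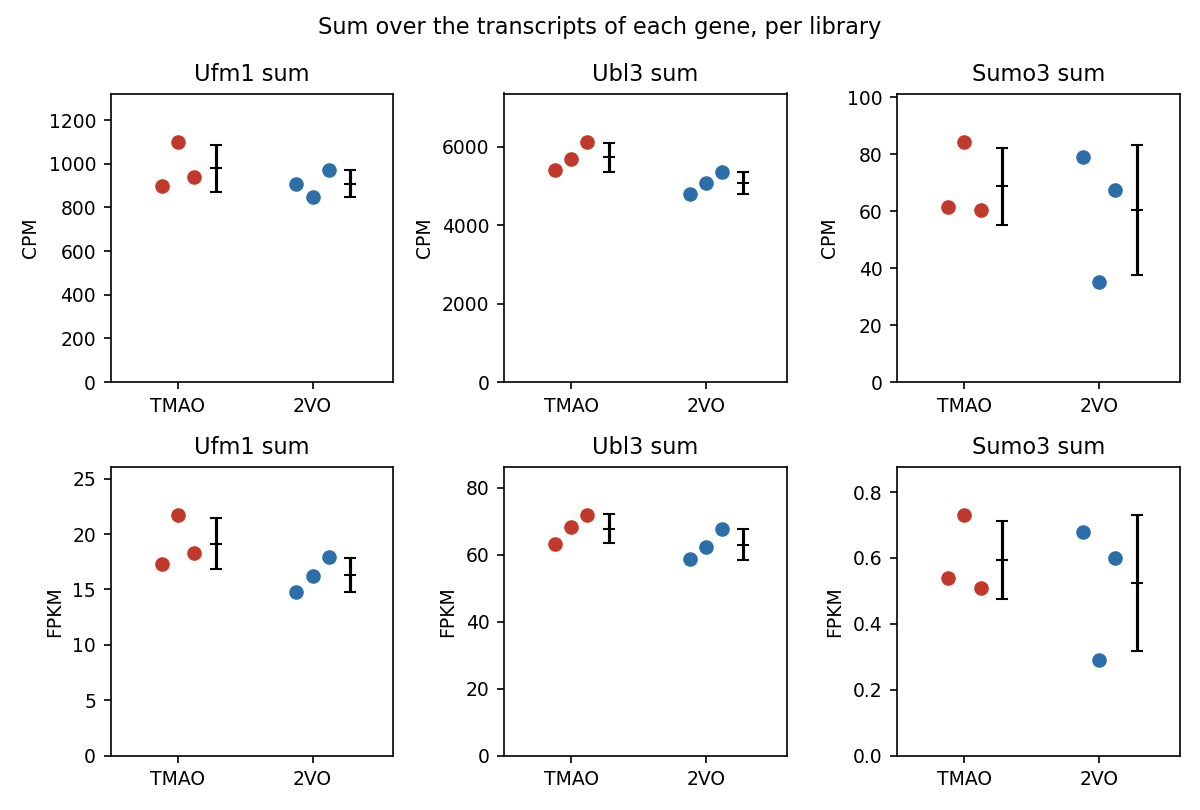
Sum over the transcripts of Ufm1, Ubl3 and Sumo3 in each library, as CPM (top) and FPKM (bottom), with 3 TMAO libraries (red, left) and 3 2VO libraries (blue, right) and the mean ± SD in black. Ubl3 CPM are 5396 to 6129 in TMAO and 4806 to 5367 in 2VO, without overlap, while its FPKM overlap. Ufm1 and Sumo3 overlap on both scales.

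The 2 main isoforms of Ufm1 are described first, then the low ones. Ufm1-204 (ENSRNOT00000108083) had 234, 274 and 215 counts in TMAO and 152, 207 and 195 counts in 2VO. The lowest TMAO library lay above the highest 2VO library. On the FPKM scale the values were 10.7, 13.97 and 11.03 in TMAO and 7.48, 10.46 and 10.21 in 2VO, again without overlap. Of all tested transcripts, 4.54% had TMAO wholly above 2VO in FPKM, and 14.6% did not overlap in either direction. In CPM, where Ufm1-204 did not overlap either, these shares were 7.2% and 14.4%. Ufm1-204 had a log2 fold change of 0.41 (SE 0.19), a fold of 1.33 with a 95% interval of 0.970 to 1.82. Its edgeR unadjusted p was 0.0698 and its adjusted p 0.666.

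Ufm1-201 (ENSRNOT00000100166) took most of the reads of the gene and had 551, 615 and 499 counts in TMAO and 621, 503 and 617 counts in 2VO. Both groups spanned nearly the same range. Its log2 fold change was -0.035 (SE 0.14), a fold of 0.976 with a 95% interval of 0.778 to 1.22, at an edgeR adjusted p of 0.949. The sign turned without 2VO-1, 2VO-3, TMAO-1 or TMAO-3, where the log2 fold change was at most 0.038.

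Ufm1-203 (ENSRNOT00000108324) had 38, 24 and 36 counts in TMAO and 24, 4 and 28 in 2VO. The 2VO-2 library was far below the other 5. The log2 fold change of 0.83 (SE 0.63) had an edgeR adjusted p of 0.835, and without 2VO-2 it was 0.36. Ufm1-202 (ENSRNOT00000058116) had 9, 27 and 28 counts in TMAO and 19, 34 and 8 in 2VO, so a low library occurred in each group. The fifth, ENSRNOT00000108495, which also bears the symbol Ufm1-201, had no count in TMAO and 2 counts in 2VO-3 only, under the low-count filter.

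Summed over its isoforms, Ufm1 had 832, 940 and 778 counts in TMAO and 816, 748 and 850 in 2VO. TMAO-2 was highest and the other 2 TMAO libraries lay within the 2VO range. The sum had a log2 fold change of 0.12 (SE 0.12), a fold of 1.08 with a 95% interval of 0.890 to 1.32, at an edgeR adjusted p of 0.866. The value depended on the scale and on 1 library: it was 0.042 with whole-library depth, 0.23 with limma on log2(FPKM + 0.1), and 0.023 without TMAO-2. A sum of FPKM gives short isoforms more weight than a sum of counts.

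The order of the 2 main Ufm1 isoforms turned round between counts and levels per length. By counts, Ufm1-201 (ENSRNOT00000100166) held 65.3 ± 1.05% of the gene in TMAO and 72.0 ± 4.46% in 2VO, and Ufm1-204 held 28.3 ± 0.773% in TMAO and 23.1 ± 4.52% in 2VO (SD, n = 3 each). By FPKM, Ufm1-204 held 62.1 ± 2.04% in TMAO and 57.4 ± 7.06% in 2VO, and Ufm1-201 held 26.8 ± 0.552% in TMAO and 33.9 ± 4.64% in 2VO (SD, n = 3 each). The ratio of count to FPKM, which is proportional to the length used for the transcript, was 5.33 to 5.35 times as high for Ufm1-201 as for Ufm1-204 in the 6 libraries. For Ubl3-201 it was 3.62 to 3.63 times that of Ufm1-204. Ranked by reads, Ufm1-201 was thus the leading isoform, and ranked by level per length it was Ufm1-204, in 6 of 6 libraries.

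The share of Ufm1-201 in the counts of Ufm1 was 66.2%, 65.4% and 64.1% in TMAO and 76.1%, 67.2% and 72.6% in 2VO. All TMAO shares lay below all 2VO shares, and the same was true by FPKM. Over all genes and loci with at least 2 counted transcripts, the groups did not overlap for 10.2% of 362 isoform shares by count and 9.67% by FPKM. The difference of -6.72 percentage points had an exact two-sided permutation p of 0.1, the smallest that 3 against 3 libraries can give. The share of Ufm1-204 was 28.1%, 29.1% and 27.6% in TMAO and 18.6%, 27.7% and 22.9% in 2VO. These count shares overlapped, since 2VO-2 lay just above TMAO-3, at an exact permutation p of 0.2. By FPKM the overlap was wider. There the Ufm1-204 share in 2VO-2, 64.6%, lay above all TMAO libraries (60.3% to 64.3%), at an exact permutation p of 0.4. The direct ratio of Ufm1-204 to Ufm1-201 in counts was 0.425, 0.446 and 0.431 in TMAO and 0.245, 0.412 and 0.316 in 2VO, without overlap (exact permutation p = 0.1). This ratio was formed after the shares had been seen, so its lack of overlap is no support for a difference. How often such ratios fail to overlap over all genes and loci was not taken.

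In the test of isoform usage over the whole table, edgeR's diffSpliceDGE, Ufm1 did not pass. The test asks whether the isoforms of a gene or locus change by different amounts, and it covered 112 genes or loci with at least 2 transcripts past the filter. Of these, 2 (1.79%) were called at an adjusted p under 0.05, both of them assembled loci, and 8 (7.14%) had an unadjusted p under 0.05. Ufm1, with 4 isoforms, had an unadjusted p of 0.458 and an adjusted p of 0.998. Relative to the gene as a whole, Ufm1-204 had a log2 fold change of 0.21 and Ufm1-201 of -0.10, at unadjusted diffSpliceDGE p of 0.473 and 0.654. For single transcripts in this test, 0.719% of 278 were called after adjustment and 2.52% had an unadjusted p under 0.05, and 0 of the 8 members were among either. Ubl3 had an adjusted p of 0.998 with 2 isoforms. At a mean count of at least 50, only Ufm1-201 and Ufm1-204 remained of Ufm1. The diffSpliceDGE unadjusted p of Ufm1 was then 0.103 and the adjusted p 0.940.

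**Figure D3:**
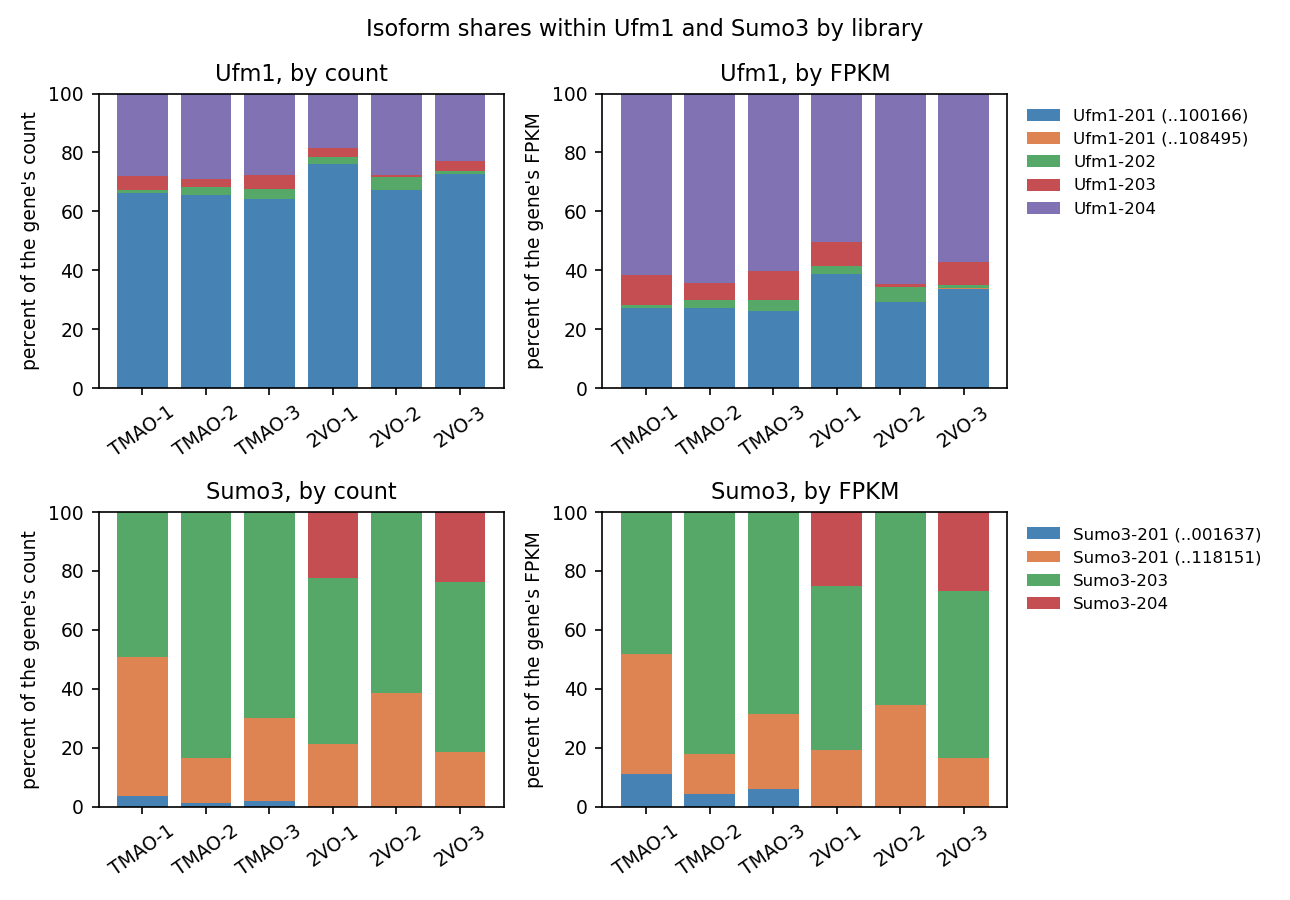
Percent of the counts (left) and of the FPKM (right) of Ufm1 (top) and Sumo3 (bottom) held by each isoform in each library, TMAO libraries to the left of 2VO libraries. Ufm1-201 (ENSRNOT00000100166) is the largest part of Ufm1 by counts and Ufm1-204 by FPKM in all 6 libraries. Sumo3-204 appears in 2VO-1 and 2VO-3 only.

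Sumo3 was measured by few reads, 340 counts over the 6 libraries. Sumo3-203 (ENSRNOT00000094434) had 28, 60 and 35 counts in TMAO and 40, 19 and 34 in 2VO. TMAO-2 was the highest and 2VO-2 the lowest, and the other libraries were alike. The log2 fold change of 0.44 (SE 0.42) had an edgeR adjusted p of 0.863, and it was 0.058 (without TMAO-2) to 0.69 with a library left out. Sumo3-201 (ENSRNOT00000118151) had 27, 11 and 14 counts in TMAO and 15, 12 and 11 in 2VO, where TMAO-1 alone lay above the 2VO range. Its log2 fold change of 0.46 (SE 0.43) had an edgeR adjusted p of 0.863 and was 0.058 without TMAO-1.

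The remaining 3 Sumo3 transcripts lay under the low-count filter. Sumo3-204 (ENSRNOT00000115542) had no count in TMAO and 16, 0 and 14 counts in 2VO. It was thus seen in 2 of the 3 2VO libraries, the groups shared the value 0, and on CPM an exact permutation test gave p = 0.4. In edgeR's quasi-likelihood test it had an unadjusted p of 0.0157 and an adjusted p of 0.761 without a low-count filter, and 0.00496 unadjusted and 0.414 adjusted without 2VO-2. Because 2VO-2 was the only 2VO library without a count, the values without it are no support for a difference. Without any 1 TMAO library the edgeR unadjusted p was 0.0641 to 0.0675. There Sumo3-204 passed the filter only through 2VO-1 and 2VO-3, so these values are no support either. Set against a floor of 3 counts over the TMAO group, equal to 1.15 CPM, the pooled 2VO level was 9.82-fold higher. The floor covers the counting error of the TMAO group only, and neither that of the 2VO counts nor the spread between libraries. The value was 6.92-fold without 2VO-1 and 7.81-fold without 2VO-3, and is no lower bound on the difference. The authors' deposited table gives it a log2 ratio of -6.78 with a p-value of 0.0147, unadjusted, and a false discovery rate of 0.919. That ratio rests on a TMAO mean written as 0.001 FPKM in place of 0. Among the 12 members it was the only one with an unadjusted p under 0.05 in the authors' deposited table and the only one in their second table of 56 transcripts. Of all 4972 transcripts, 1.95% had such a p in the authors' deposited table. ENSRNOT00000001637, which also bears the symbol Sumo3-201, had 2, 1 and 1 counts in TMAO and none in 2VO. Sumo3-202 (ENSRNOT00000094759) had no count in any library, which allows up to 0.570 CPM over the 6 libraries.

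Summed, Sumo3 had 57, 72 and 50 counts in TMAO and 71, 31 and 59 in 2VO. Here 2VO-2 was lowest and the other libraries of both groups lay together. The sum had a log2 fold change of 0.19 (SE 0.34), a fold of 1.14 with a 95% interval of 0.654 to 1.99, at an edgeR adjusted p of 0.907. It turned to -0.080 without 2VO-2 and was 0.023 without TMAO-2. Leaving Sumo3-204 out of the sum, an alternative chosen after the values were seen, gave 57, 72 and 50 counts in TMAO and 55, 31 and 45 in 2VO. The log2 fold change was then 0.49 (SE 0.28), at an edgeR adjusted p of 0.730.

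In the test of isoform usage, Sumo3 was called in 1 of the settings tried, without the 2VO-2 library. With the 2 isoforms past the filter, Sumo3-203 and Sumo3-201 (ENSRNOT00000118151), the diffSpliceDGE unadjusted p was 0.976 and the adjusted p 0.998. Without a low-count filter, 4 isoforms entered, and the unadjusted p was 0.00453 and the adjusted p 0.163 over 144 genes or loci. Of these 144, 1 was called. Without the 2VO-2 library, in which Sumo3-204 had no count, that isoform passed the filter. In that setting 2 of 114 genes or loci were called, Sumo3 among them at a diffSpliceDGE adjusted p of 0.00925. Sumo3-204 passed only through the 2VO libraries that held it, so the Sumo3 call is no support for a difference in isoform usage. Sumo3-204 also entered when a TMAO library was left out, again only through the 2VO libraries that held it. There Sumo3 was not called. The unadjusted diffSpliceDGE p was then 0.0254 to 0.0324 and the adjusted p 0.319 to 0.532. For the same reason these values are no support for a difference. The genes or loci called were 5 of 113 without TMAO-1, 0 of 115 without TMAO-2 and 3 of 115 without TMAO-3. By counts, Sumo3-204 held 0% of Sumo3 in each TMAO library and 22.5%, 0% and 23.7% in the 2VO libraries. With 30 counts of this isoform in all, the data show its presence in 2 libraries of the 2VO group and do not separate the groups.

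**Figure D4:**
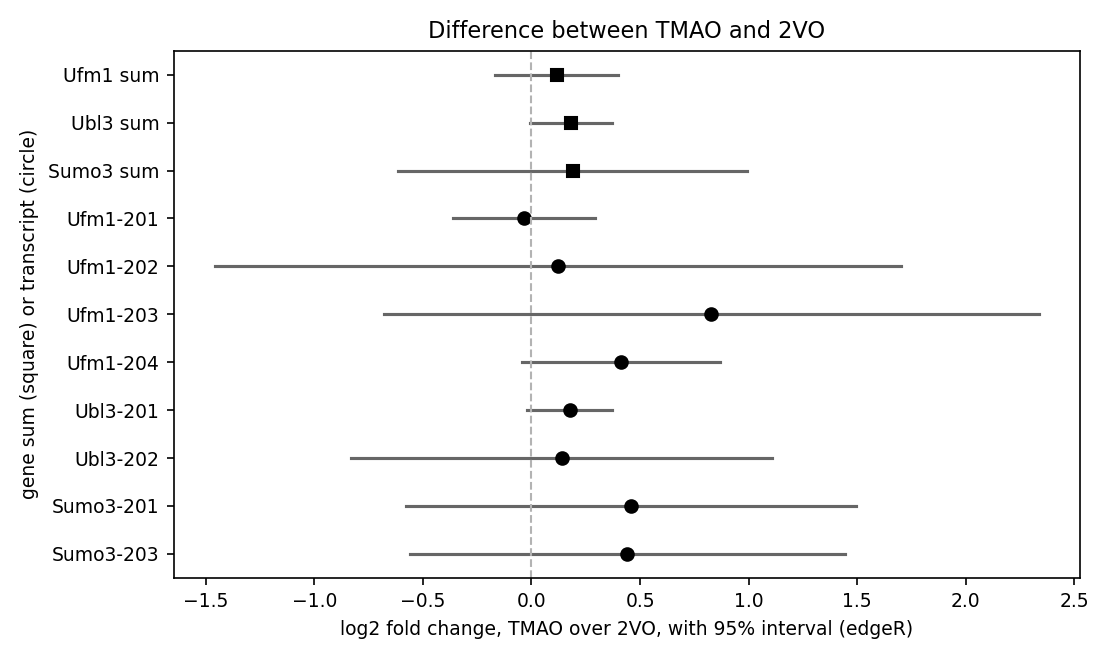
Log2 fold change of TMAO over 2VO with its 95% interval from edgeR, for the 3 gene sums (squares) and the 8 transcripts past the low-count filter (circles). All 11 intervals include 0. Those of Ubl3-201 and the Ubl3 sum are the narrowest, and that of the sum runs from -0.0074 to 0.37. Ufm1-201 and Sumo3-201 are ENSRNOT00000100166 and ENSRNOT00000118151.

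The intervals differed in width between the members. For the Ubl3 sum the interval left room for a difference of at most 1.29-fold upward, and for the Ufm1 sum of at most 1.32-fold. For Sumo3-203 it ran from 0.679 to 2.72-fold, and for Ufm1-203, with 154 counts over 6 libraries, from 0.625 to 5.05-fold. Both intervals include a 2-fold difference. For Ufm1-203 the SE of the log2 fold change was 0.63 with all libraries and 0.34 without 2VO-2. Among the 11 isoforms with at least 1 count, the share of the gene's counts did not overlap between the groups for 2, where the background was 10.2%: Ufm1-201 (ENSRNOT00000100166), and ENSRNOT00000001637 of Sumo3, which had 4 counts in all.

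Other genes of these pathways were nearly missing from the lncRNA table. Of 49 further genes searched, among them the other modifiers and the enzymes of the UFM1 and SUMO cascades, 2 were found, and none of the SUMO enzymes. The search was by symbol, or by source gene in the authors' second table only. Absence from an lncRNA table does not show whether the coding mRNAs were expressed. Urm1, a modifier that also carries sulfur for tRNA modification, had 6 transcripts, of which 2 passed the filter and 0 had an unadjusted edgeR p under 0.05. Summed, Urm1 had 358, 358 and 350 counts in TMAO and 373, 343 and 316 in 2VO, which overlapped. Its log2 fold change was 0.08 (SE 0.12) at an edgeR adjusted p of 0.885. Per length, Urm1 measured 11.0 ± 0.390 FPKM in TMAO and 10.7 ± 0.939 FPKM in 2VO (SD, n = 3 each), below Ufm1 and above Sumo3. Ufsp1, a protease that processes UFM1, had no count in TMAO and 0, 1 and 2 counts in 2VO.

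The genes with the most similar pattern were sought among 31 other genes or loci with a symbol, by the root mean square difference of centred log2 CPM over the 6 libraries. For Ufm1 the nearest was AABR07039328.2 at 0.066, followed by Tspyl1 at 0.12, where the median over the 31 was 0.30. For Ubl3 the nearest was the same locus, AABR07039328.2, at 0.088, followed by Micos10 at 0.12, against a median of 0.30. For Sumo3 the nearest were Rpl30 at 0.22 and Gpbp1l2 at 0.31, against a median of 0.46. Like Sumo3, both were lowest in 2VO-2. These distances describe 6 libraries, and a small distance is easier to reach for genes that vary little, such as Ubl3.

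The hippocampal label could not be checked on defining markers, because 2 of the 39 marker genes searched in 7 cell-type lists were represented, Emx2 of the neuron list and Cd34 of the endothelial list. Both were found only as source genes in the authors' second table, in which all 56 transcripts had an unadjusted p under 0.05. The Emx2-source transcript had 71, 69 and 96 counts in TMAO and 48, 33 and 30 in 2VO, and the Cd34-source transcript had 95, 63 and 85 counts in TMAO and 257, 97 and 126 in 2VO. Their part in the values of Ufm1, Ubl3 and Sumo3 was not tested. The labels name no batch.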

How the data were processed

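Total RNA from rat hippocampus was sequenced in 3 TMAO and 3 2VO libraries. The authors deposited raw read counts per transcript and FPKM values rounded to 2 decimals, per the file headers. The deposited table also holds the authors' group mean FPKM, with 0 written as 0.001, their log2 ratio of these means, an unadjusted p-value and a false discovery rate, and no source used here names the test behind them. The submitters' processing notes name the build rn6 and, without roles, StringTie, HISAT2 2.1.0, fastp 0.18.0, DESeq2 and Bowtie2. The strand setting and the division of reads between isoforms are not stated, so counts of single isoforms are uncertain.

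The main test was edgeR 4.0.16's quasi-likelihood test of the counts, scaled by TMM and filtered by filterByExpr (count 10, total 15), in R 4.3.3, with the group alone in the model, over all transcripts and over a table summed by symbol. Isoform usage was tested with diffSpliceDGE, grouped by symbol or assembled locus. CPM used TMM effective library sizes. Shares were compared by exact permutation tests. Alternatives were DESeq2 1.42.0, limma 3.58.1, other scalings and filters, a replicate block and each library left out. Whole-library depth was read from count over FPKM of 223 transcripts exceeding 5 FPKM and ran from 0.941 to 1.08 with 2VO-1 as 1. Within groups, counts of library pairs differed by a chi-square of 11.4 to 15.7 per degree of freedom, well beyond sampling noise. The tests were tried on simulated counts, with changes larger than those of the Ubl3 and Ufm1 sums. That trial does not show whether differences as small as these would be called. The genes and lists were chosen with earlier results of these data known. All transcripts of the 3 genes are named, and the 2 nearest patterns per gene. Figures were drawn with matplotlib 3.10.9.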

Additional observations from a re-analysis of the deposited data

How the results depend on the processing

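Under every alternative run, 0 transcripts of the 3 genes passed an adjusted p of 0.05. The Ufm1 and Ubl3 sums kept a positive sign throughout, with log2 fold changes of 0.023 to 0.17 for Ufm1 and 0.13 to 0.22 for Ubl3 when single libraries were omitted. The Sumo3 sum ran from -0.080 (without 2VO-2) to 0.42 with a library left out, and was 0.49 without Sumo3-204. The adjusted p of isoform usage in Sumo3 ran from 0.00925 (without 2VO-2) to 0.996 with a library left out. Without 2VO-2, 2 of 114 genes or loci were called. There Sumo3-204 passed the filter through the 2VO libraries that held it, so the Sumo3 call is no support for a difference. Sumo3-204 also passed without any 1 TMAO library, again only through those 2VO libraries, and there Sumo3 was not called. At a mean count of at least 50, isoform usage could not be tested for Ubl3 and Sumo3, and no log2 fold change was given for the 5 lower transcripts.

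With a library left out, log2 fold changes ran from -0.12 to 0.038 for Ufm1-201 (ENSRNOT00000100166), from -0.25 to 0.72 for Ufm1-202 and from -0.24 to 0.43 for Ubl3-202, which was also -0.0017 and -0.017 with limma at pseudocounts of 0.1 and 0.01. Share differences ran from -0.92 to 0.88 points for Ufm1-202, -0.13 to 0.18 for Ubl3-201, -0.18 to 0.13 for Ubl3-202 and -4.52 to 11.5 for Sumo3-201 (ENSRNOT00000118151). The share difference of Sumo3-203 was 9.07 points, 1.14 (without TMAO-2) to 18.2 (without TMAO-1) with a library left out, and -0.91 among isoforms past the filter, where Sumo3-204 is not in the denominator. The causes of the other turns were not tested.

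The replicate number as a block gave log2 fold changes of 0.11, 0.18 and 0.23 for the Ufm1, Ubl3 and Sumo3 sums and changed no call among these genes. With the block, the edgeR unadjusted p was 0.0412 for Ubl3-201, 0.0358 for the Ubl3 sum and 0.0511 for Ufm1-204. The adjusted p was 0.627, 0.600 and 0.627, and the share of all transcripts under 0.05 unadjusted was not taken in this setting. The labels state no pairing, so the numbers were not read as pairs. Same-numbered libraries correlated at -0.07, 0.21 and 0.04 in their deviations. Differently numbered libraries were not compared in this way, so these values cannot decide whether the libraries were paired. Sumo3 rests on 340 counts over the 6 libraries.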
